A study of Drosophila melanogaster with 8 samples.

Results

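Binding of the Bicoid protein (Bcd) was examined at 4 gap genes of Drosophila melanogaster, giant (gt), knirps (kni), knirps-like (knrl) and tailless (tll), in zelda mutant and in wild-type embryos. The members are the Bcd peaks that overlap, by at least 1 bp, 1 of 3 fixed windows of the dm3 genome, on X from 2310000 to 2340000 (gt), on 3L from 20600000 to 20720000 (knrl and kni together) and on 3R from 26660000 to 26690000 (tll). There were 24 such peaks among 6541 in all, namely 12 of the 2650 mutant peaks and 12 of the 3891 wild-type peaks. The windows are defined by position, but the loci were picked with earlier results of these data known. No gene annotation of dm3 was used here, so the peaks are given by position and not as exonic, intronic or upstream. In the RefSeq table of Release 6 the coding genes gt, knrl, kni and tll lie on X, 3L, 3L and 3R, and 1 coding gene, CG13251, stands between knrl and kni. The peaks of that window were therefore not divided between the 2 genes.

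Chromatin immunoprecipitation with sequencing was done on whole embryos collected 1 to 3 h after egg laying, with a rabbit antiserum against Bcd. The 8 samples were zelda mutant Bcd ChIP, zelda mutant input, wild-type Bcd ChIP and wild-type input, with 2 replicates each, and no label says whether replicates came from separate collections. The labels name the genotype only as zelda mutant, and the sources used here do not say which allele it was or whether maternal product, zygotic product or both were missing. The authors deposited 1 peak list per genotype, so there is no replicate spread and no p-value for a difference between genotypes. After removal of duplicate tags the ChIP held 10060479 tags in the mutant and 39154546 in wild type, a ratio of 0.257. A deeper library gives longer and more numerous peaks at one cutoff, and this difference in depth cannot be told apart from genotype in counts or lengths of peaks. All intervals below are 95% intervals. Those of tags cover counting error only, because each genotype has 1 list without replicate values. Sequencing tags are not independent molecules, so these intervals may be too narrow. Wilson intervals, used for shares of peaks, treat the peaks as independent, which neighbouring peaks of a locus may not be.

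Gap genes are the first zygotic genes to divide the embryo along its head-to-tail axis. Bcd, a homeodomain protein translated from maternal mRNA laid down at the anterior pole, forms a gradient and binds enhancers of several of them. Zelda is a maternally supplied zinc finger protein that binds many early enhancers and is needed for the accessibility of their chromatin and for the onset of zygotic transcription. The comparison asks where Bcd binding at these genes differs between zelda mutant and wild-type embryos. In whole embryos, fewer nuclei bound by Bcd and weaker binding per nucleus cannot be told apart.

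All 3 windows were still bound in the mutant, and what differed was mainly how much of each window was called as bound. The mutant list held 4 peaks at gt, 5 at knrl-kni and 3 at tll, and the wild-type list held the same numbers. The called length was 5.88 kb in the mutant against 17.5 kb in wild type at gt, 12.3 kb in the mutant against 16.8 kb in wild type at knrl-kni, and 7.04 kb in the mutant against 12.2 kb in wild type at tll. Shorter calls were not particular to these windows. Over all peaks on the chromosome arms, the median length was 1364.5 bp in the mutant and 2127 bp in wild type. Of the wild-type members 9 of 12 were matched by a mutant peak, a share of 75.0% with a Wilson interval of 46.8 to 91.1%, whereas 45.5% of the 2827 wild-type peaks on the chromosome arms (2L, 2R, 3L, 3R, 4 and X) were. Wild-type peaks that overlap a mutant peak are called kept below. All 12 mutant peaks overlapped a wild-type peak (Wilson interval 75.8 to 100), against 74.4% of the 1870 mutant arm peaks. That interval is no test against the arms either, because the loci were chosen. By window, 3 of 4 wild-type peaks were matched at gt (44.7% of all X peaks), 4 of 5 at knrl-kni (41.2% of all 3L peaks) and 2 of 3 at tll (48.7% of all 3R peaks). The mutant peaks lay within wild-type peaks over at least 99.4% of their length. It therefore adds little that each of the 12 mutant summits, the point of highest tag density in a peak, lay inside a wild-type peak. By the same overlap, none of the windows held a peak that was present in the mutant list alone.

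**Figure D1:**
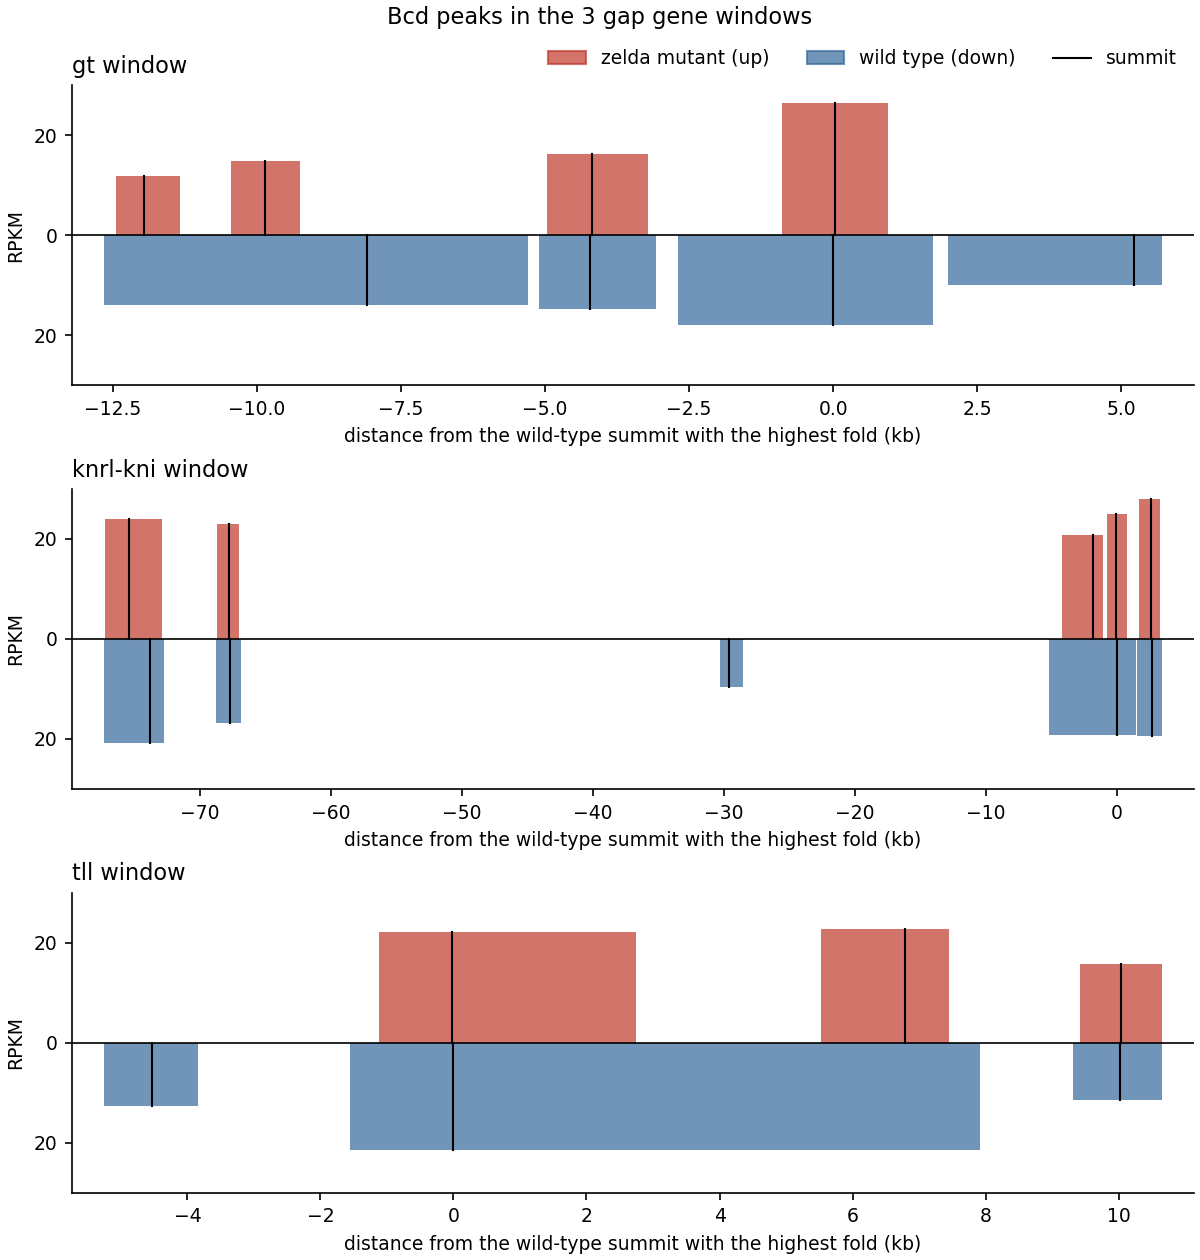
Peaks in the gt, knrl-kni and tll windows, with mutant peaks drawn upwards and wild-type peaks downwards. The x axis is the distance in kb from the wild-type summit with the highest fold in that window, the height of a box is the tag density (tags per kb and per 1000000 filtered tags), its width is the called peak, and black lines are summits. Every mutant box stands over a wild-type box, and 3 long wild-type boxes each face 2 mutant boxes.

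The tags inside called peaks are given next for each window. Tags are counted per 1000000 ChIP tags left after removal of duplicates (RPM), and densities as RPM per kb of called peak (RPKM). At gt, the mutant peaks held 108 RPM (exact Poisson interval 101 to 114) and the wild-type peaks 250 (245 to 255), a ratio of 0.431 (exact conditional binomial interval 0.405 to 0.459). At tll, it was 149 RPM (142 to 157) in the mutant and 236 (231 to 241) in wild type, a ratio of 0.633 (0.599 to 0.669). At knrl-kni, it was 291 (281 to 302) in the mutant and 309 (303 to 314) in wild type, a ratio of 0.945 (0.907 to 0.984). These are sums over regions called separately in each list, and tags outside the mutant peaks are not in them. Over all arm peaks, the called regions held 471353 of 10060479 filtered tags in the mutant and 3785727 of 39154546 in wild type. A lower RPM in called peaks of the mutant was thus general on the arms and not particular to these windows. The called length in the mutant was 0.336 times that in wild type at gt, 0.576 times at tll and 0.733 times at knrl-kni, so the ratios stood in the same order as the called lengths. The part of depth in this order was not tested.

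The density inside the called regions went the other way. The mutant peaks of the gt window held 18.3 RPKM (17.2 to 19.4) and the wild-type peaks 14.2 (14.0 to 14.5). In the knrl-kni window the density was 23.7 (22.9 to 24.6) in the mutant and 18.4 (18.1 to 18.7) in wild type. In the tll window it was 21.2 (20.1 to 22.3) in the mutant and 19.3 (18.9 to 19.7) in wild type. Whether the shorter called length accounts for this was not tested, and a higher density in the mutant was common on the arms as a whole. Over 1187 arm pairs of 1 wild-type with 1 mutant peak, the median ratio of mutant to wild-type density was 1.15 (interquartile range 1.01 to 1.29). Divided by that median, the ratio pooled over the kept peaks was 0.917 at tll, 1.04 at gt and 1.06 at knrl-kni. No interval was computed for these. Single kept peaks differed, with undivided ratios of 0.952, 1.10 and 1.48 at gt and of 1.05 and 1.38 at tll. With mutant tags spread over the whole wild-type length, a lower bound, the ratios were 0.506 for gt, 0.685 for tll and 0.998 for knrl-kni. A lower bound cannot show that the density was below wild type.

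**Figure D2:**
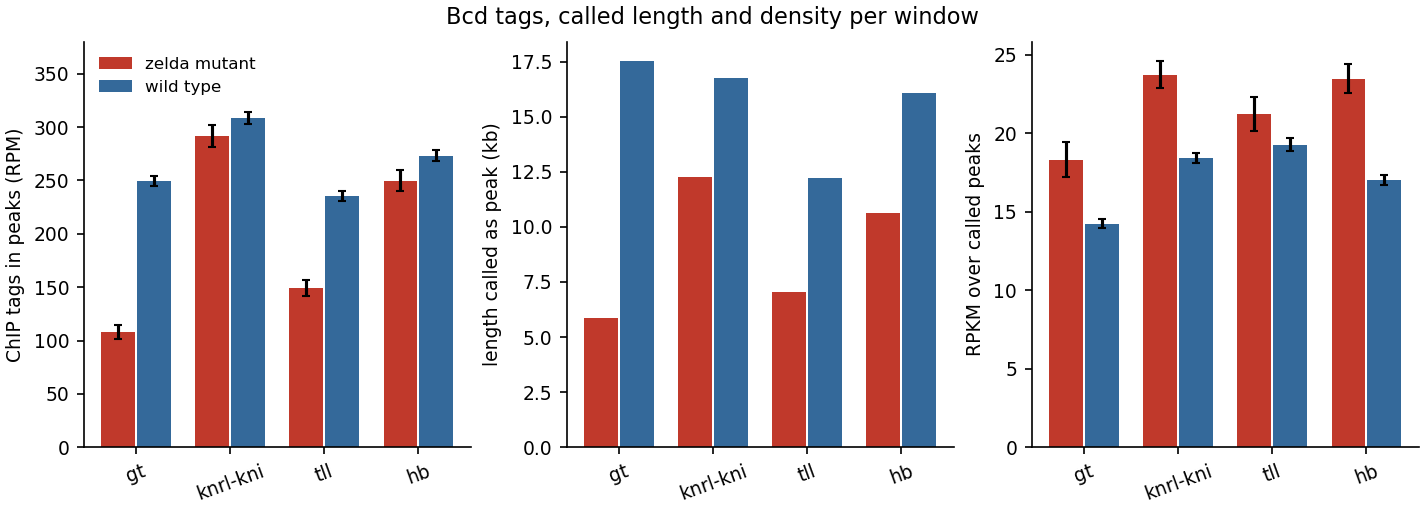
Tags in peaks (RPM), length called as peak (kb) and tag density per window, for the zelda mutant (red) and wild type (blue), with hunchback (hb) for comparison. Bars are values of 1 list each and error bars are exact Poisson 95% intervals. The gt window shows the widest gap in tags and in called length, while the density is higher in the mutant in all 4 windows. For tll the ratio pooled over kept peaks is below 1 relative to the median of arm pairs, with no interval computed.

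The gt locus, which encodes a basic leucine zipper repressor, carried a nearly unbroken Bcd domain of 18.4 kb in wild type, of which most was not called in the mutant. In the mutant list its peaks ran from 2320360 to 2321469, from 2322370 to 2323552, from 2327845 to 2329602 and from 2331930 to 2333760. In the wild-type list they ran from 2320152 to 2327516, from 2327714 to 2329728, from 2330117 to 2334547 and from 2334802 to 2338515. The gaps between neighbours measured 900, 4292 and 2327 bp in the mutant against 197, 388 and 254 bp in wild type. Mutant peaks covered 33.6% of the length called in wild type.

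At the left end of the domain, the mutant had 2 peaks of 1110 and 1183 bp with 131 (110 to 155) and 177 (152 to 205) tags, where wild type had a single peak of 7365 bp with 4044 tags (3920 to 4171). Those 2 mutant peaks covered 31.1% of the wild-type peak, and their RPM came to 0.296 times the wild-type value (0.263 to 0.333). Of the 1285 kept arm peaks, 6.54% had a lower ratio. The summit of the wild-type peak, at 2324727, lay in no mutant peak and 1175 bp from the nearest mutant edge. A mutant peak covered the wild-type summit in 94.2% of the 1285 kept arm peaks, and in 85.0% of the 160 among them that were 5 kb or longer. By the authors' own values the 2 mutant peaks had fold enrichments of 3.45 and 4.99, beside a median of 3.97 over the mutant arm peaks, and false discovery rates (FDR) of 10.3% and 9.72%. The authors' fold enrichment is the ChIP signal over the local background from the input, and it is used here only within a list.

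The third wild-type gt peak, the strongest of the locus by fold in wild type as its partner was in the mutant, had its summit inside a much shorter mutant peak. The mutant peak was 1831 bp long with 488 tags (446 to 533), and the wild-type peak 4431 bp long with 3116 tags (3008 to 3227). The summits, at 2332838 in the mutant and 2332810 in wild type, lay 28 bp apart. The density was 26.5 RPKM (24.2 to 29.0) in the mutant and 18.0 (17.3 to 18.6) in wild type. This was a ratio of 1.48 (1.34 to 1.62) between calls of unlike length, and 94.6% of the kept arm peaks had a lower ratio. In RPM the mutant peak held 0.610 times the wild-type value (0.553 to 0.671), and 30.4% of the kept arm peaks had a lower ratio. The mutant peak ranked 56 of 1870 arm peaks by fold and the wild-type peak ranked 7 of 2827. It covered 41.3% of the wild-type peak, and 13.2% of the kept arm peaks were covered to a lower share. The mutant peak left uncalled 1813 bp on the left and 787 bp on the right of the wild-type peak.

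The second wild-type gt peak was covered by its mutant partner over 87.2% of its length. It measured 1758 bp with 287 tags (255 to 322) in the mutant and 2015 bp with 1168 tags (1102 to 1237) in wild type, with summits 28 bp apart. The ratio of densities was 1.10, and its interval of 0.960 to 1.25 included 1. The fourth wild-type peak, from 2334802 to 2338515 with 1446 tags (1372 to 1522), overlapped no mutant peak, and the nearest one ended 1.04 kb away. By fold it was among the weaker peaks of wild type, with 4.33 against an arm median of 5.33, and its FDR was 9.85%. By the score of the peak caller it stood nearer the middle, with 138 against an arm median of 157.9 and 44.5% of arm peaks below it.

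The knrl-kni window, whose genes encode related zinc finger proteins of the nuclear receptor family, was the one with the largest share of its wild-type length still called. Mutant peaks covered 73.3% of the length called in wild type, against 57.5% at tll and 33.6% at gt. The peaks formed 2 clusters far apart. In the mutant list 62.8 kb without a peak separated them, and in the wild-type list the same stretch held 1 weak peak. The lower-numbered cluster had 2 peaks in each list, and the higher-numbered cluster had 3 in the mutant and 2 in wild type.

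In the first cluster, the long peak was called nearly whole in the mutant, with its summit at another place. The mutant peak, from 20613154 to 20617496, held 1052 tags (989 to 1118), and the wild-type peak, from 20613073 to 20617671, held 3735 (3616 to 3857). The mutant peak covered 94.4% of the wild-type one, a larger share than in 87.9% of the kept arm peaks. Its RPM was 1.10 times the wild-type value (1.02 to 1.17). The summit stood at 20614996 in the mutant and at 20616638 in wild type, 1642 bp apart, whereas 79.9% of the 1187 arm pairs had summits within 200 bp and the median distance was 47 bp. The files give 1 summit per peak, so whether both places were dense in both genotypes was not seen. The neighbouring peak, from 20621767 to 20623447 in the mutant and from 20621670 to 20623581 in wild type, had summits 52 bp apart. Its density was 23.0 RPKM (20.8 to 25.4) in the mutant and 16.9 (16.0 to 17.8) in wild type.

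In the second cluster, the longest wild-type peak of the window faced 2 mutant peaks, of which 1 held its summit. The mutant peaks ran from 20686251 to 20689375 with 654 tags (605 to 706) and from 20689712 to 20691262 with 391 tags (353 to 432), and the wild-type peak from 20685259 to 20691886 with 4999 tags (4861 to 5140). A gap of 336 bp separated the mutant peaks, which covered 70.5% of the wild-type one. The shorter mutant peak carried the wild-type summit, 48 bp from its own, and had the higher fold of the pair, 10.69 against 4.89, ranking 13 among the mutant arm peaks. The wild-type peak had a fold of 11.65 and ranked 22 in its list. The last peak of the cluster had the highest density of all 24 peaks, with 28.0 RPKM (25.4 to 30.7) in the mutant against 19.3 (18.3 to 20.3) in wild type. Its ratio of 1.45 (1.30 to 1.61) exceeded that of 93.5% of the kept arm peaks. By density it ranked 7 of 1870 mutant arm peaks, and its wild-type partner ranked 63 of 2827.

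The wild-type peak between the clusters, from 20660159 to 20661875, had no mutant peak within 24.4 kb. It had the lowest score of the 12 wild-type window peaks (74.9), with a fold of 3.52, 643 tags (594 to 695) and an FDR of 14.0%. The score is −10 times the log10 of the p-value of the peak caller, and 50 is its cutoff.

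The tll locus, which encodes an orphan nuclear receptor of the embryonic poles and head, carried the longest wild-type peak of the 3 windows. In the mutant there was a peak from 26674688 to 26678555 with 862 tags (805 to 922) and a peak from 26681334 to 26683259 with 442 tags (402 to 485). In wild type a single peak ran over 9478 bp, from 26674243 to 26683720, with 7939 tags (7765 to 8116). The mutant peaks covered 61.1% of the wild-type peak, with 2778 bp between them that were not called. The first mutant peak kept the wild-type summit to within 15 bp, at 26675789 in the mutant and 26675804 in wild type, and had the highest mutant fold of the 3 windows, 10.95. The wild-type peak had a fold of 11.62.

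At the long tll peak the density was 22.2 RPKM (20.7 to 23.7) in the first and 22.8 (20.7 to 25.0) in the second mutant peak, against 21.4 (20.9 to 21.9) in wild type. The pair of mutant peaks had 1.05 times the wild-type density (0.985 to 1.11), an interval that included 1. Of the kept arm peaks, 31.6% had a lower ratio than this long peak. The RPM of the pair was 0.639 times the wild-type value (0.602 to 0.678). Relative to the median of arm pairs, the kept tll peaks as a whole were at 0.917 in density.

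Of the short tll peaks on either side, 1 was kept and 1 was not. The kept one ran from 26685216 to 26686456 in the mutant and from 26685125 to 26686449 in wild type, with summits 14 bp apart. It held 197 tags (170 to 227) in the mutant and 592 (545 to 642) in wild type, and its density in the mutant was 1.38 times that in wild type (1.17 to 1.63). The other, from 26670546 to 26671963, overlapped no mutant peak although its fold of 7.50 lay above the arm median. It held 696 tags (645 to 750), and the nearest mutant peak began 2.73 kb away.

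**Figure D3:**
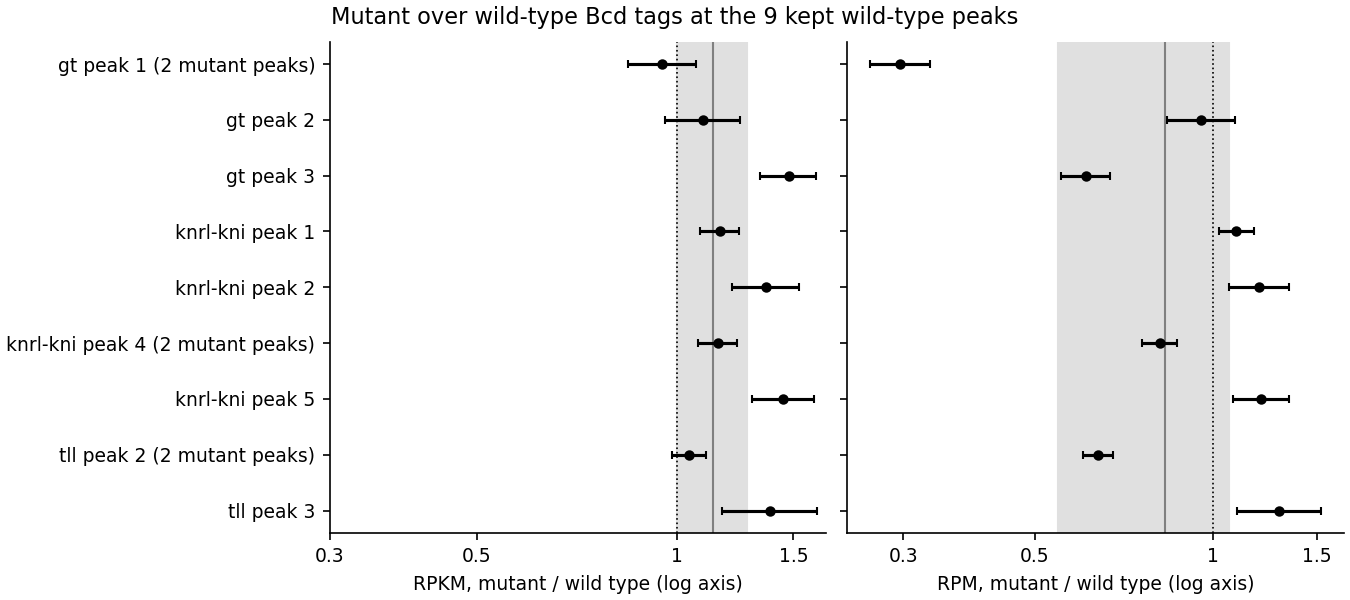
Ratio of mutant to wild-type tag density (left) and of RPM (right) at the 9 wild-type peaks that overlapped a mutant peak, on log axes, with exact conditional binomial 95% intervals. Peaks are numbered along each window; the grey band and line are the quartiles and median of 1285 kept arm peaks, and the dotted line marks 1. The first gt peak is the lowest in both panels, at 0.952 in density and 0.296 in tags.

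The longest wild-type peak of each window overlapped 2 mutant peaks. These were the 3 window peaks of 5 kb or longer, a limit chosen with the lengths known. Among arm peaks of that length 64.0% overlapped any mutant peak. Of all 2827 wild-type arm peaks, 3.36% overlapped 2 or more mutant peaks, and of the 250 that were 5 kb or longer, 20.8% did. The 6 remaining kept peaks each faced 1 mutant peak, and in 5 of these 6 pairs the summits lay within 200 bp. The exception was the long peak of the first knrl-kni cluster. Across the 6 pairs, the mutant peak was 0.876 times as long as the wild-type one in the median (lowest 0.413, highest 0.944), beside a median of 0.757 over the 1187 arm pairs. The median ratio of densities was 1.37 over the 6 pairs (lowest 1.10, highest 1.48) and 1.15 over the arm pairs. The 3 split peaks are not among these pairs. With their mutant peaks joined, their density ratios were 0.952 at gt, 1.15 at knrl-kni and 1.05 at tll. The median over the 1285 kept arm peaks was 1.14. The 6 pairs therefore do not stand for all kept peaks of the windows.

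**Figure D4:**
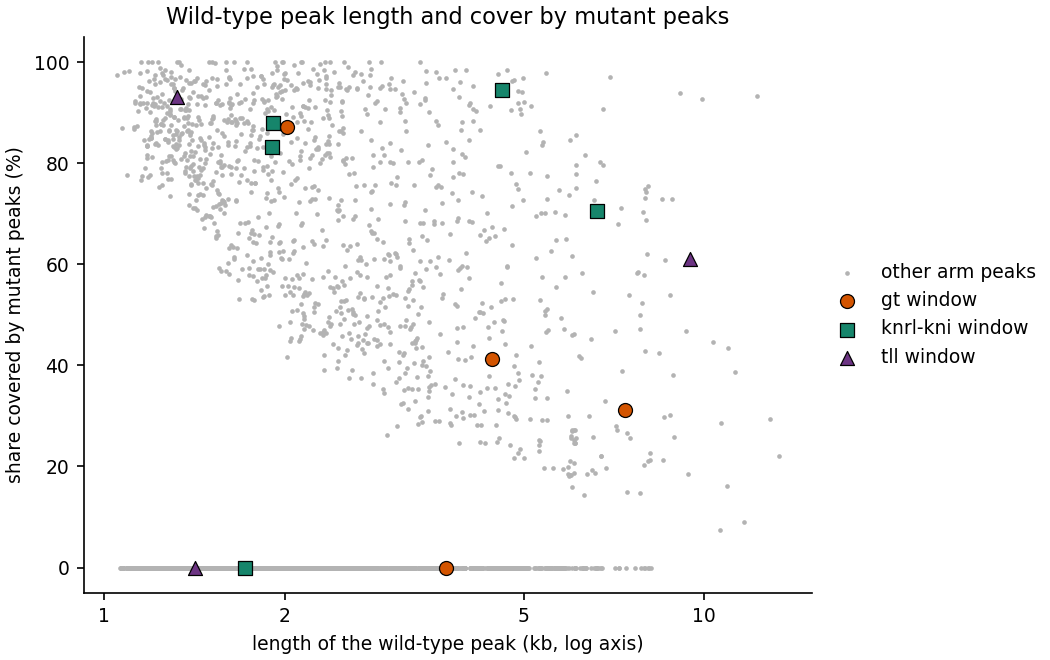
Share of each wild-type arm peak covered by mutant peaks (percent) against its length (kb, log axis), with the 12 peaks of the gap gene windows marked by window. The 3 marked peaks longer than 5 kb lie at 31.1% (gt), 70.5% (knrl-kni) and 61.1% (tll), and 3 marked peaks lie at 0.

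At gt and knrl-kni the wild-type peak without a mutant peak had the lowest fold and score of its window. At tll it had a fold of 7.50 and a score of 228, above the kept short peak with 6.77 and 166. All 8 window peaks in the upper 20% of wild-type arm peaks by score (472.7 or more) overlapped a mutant peak, against 62.0% of the 566 arm peaks in that range. Of the 4 below it, 1 did, against 41.3% of 2261 arm peaks. When each wild-type score was multiplied by the ratio of depths, the unmatched peaks at gt and knrl-kni came to 35.4 and 19.2, under the cutoff of 50, and the one at tll came to 58.6, above it. The kept short tll peak came to 42.5 by the same scaling but had a score of 267 in the mutant list. Other kept peaks were missed as well. The third gt peak came to 745 against 1381 in the mutant, and the long peak of the first knrl-kni cluster to 775 against 1911. The first gt peak went the other way, with 618 against 90.7 and 196. The scaled score thus does not tell whether a peak would be called at the mutant depth. At the mutant depth, wild-type density would give the unmatched tll peak 179 tags. Of the 805 mutant arm peaks within 20% of its length, 307 (38.1%) were called with fewer tags. For the unmatched peaks at gt (371 tags) and knrl-kni (165 tags), 1 of 74 and 21 of 584 such peaks had fewer. The part of depth in the absence of the 3 peaks was not tested.

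**Figure D5:**
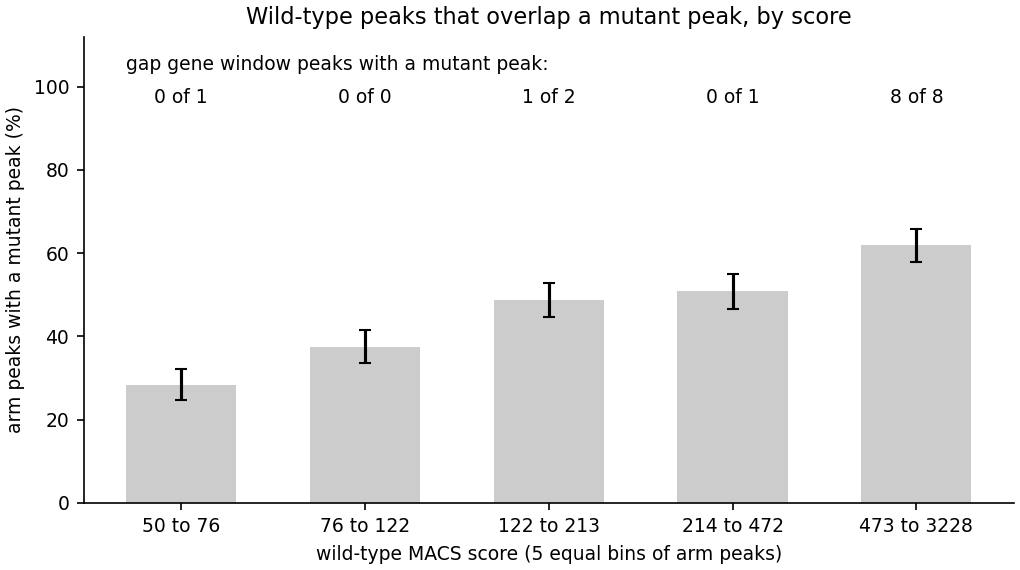
Share of wild-type arm peaks that overlapped a mutant peak (percent, with Wilson 95% intervals), in 5 equal bins by the score of the peak caller, and above each bar the number of gap gene window peaks that did. The share climbs from 28.3% in the lowest bin to 62.0% in the highest bin, which holds 8 of the 12 window peaks.

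The window peaks stood high in both lists. By fold, 11 of the 12 mutant peaks lay above the mutant arm median of 3.97 and 10 of the 12 wild-type peaks above the wild-type arm median of 5.33. Window peaks made up 5 of the 50 mutant arm peaks with the highest fold and 4 of the 50 wild-type ones. The mutant ones were 4 from knrl-kni and 1 from tll, and none from gt. The wild-type ones were 2 from gt, 1 from knrl-kni and 1 from tll. The lists differ in length and scaling, so these ranks describe each list and show no change between them.

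The hunchback (hb) locus, a gap gene long known as a target of Bcd, was set beside the 3 windows. It held 3 mutant and 4 wild-type peaks, with 250 RPM (240 to 260) in the mutant and 273 (268 to 279) in wild type, a ratio of 0.914 (0.874 to 0.954). As in the other windows, this sum goes with the called length, which in the mutant was 0.662 times that in wild type. No hb peak was split, although 1 of them, at 5722 bp, was longer than 5 kb. The 3 kept hb peaks had mutant densities of 1.69 (1.58 to 1.82), 1.24 (1.17 to 1.33) and 0.896 (0.793 to 1.01) times those of wild type, so they spread beyond both ends of the 9 kept peaks of the gap gene windows, whose ratios ran from 0.952 to 1.48. The hb window lacked a mutant partner for 1 wild-type peak, as did gt, knrl-kni and tll.

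The edges of the windows were set by position. Just outside, the next peaks lay 1.59 kb beyond the gt window in the mutant (fold 2.72) and 1.46 kb in wild type (fold 4.22), and 0.625 kb beyond the tll window in the mutant (fold 5.07) and 0.396 kb in wild type (fold 7.63). Before the gt window the nearest peak lay 27.3 kb away in the mutant (fold 5.02) and 6.49 kb away in wild type (fold 9.33). Around knrl-kni the nearest peak of either list was at least 15.9 kb from the window.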

How the data were processed

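Reads were processed with Bowtie2 on dm3 and peaks were called with MACS 1.4.2, per the submitters' processing notes. Each list came, per the file headers, from a single ChIP file and a single control file, with a p cutoff of 1.00e-05, a fragment size of 200 bp and at most 1 tag per position. The sources used here do not say how replicates were joined. The deposited lists give a tag count per peak (whole ChIP tags), a score (−10 times the log10 p-value), a fold enrichment over control (a ratio) and an FDR in percent, all the authors' own values.

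From these, tags per kb and per 1000000 filtered ChIP tags (RPKM) (10060479 in the mutant, 39154546 in wild type), overlaps of at least 1 bp and summit distances were computed with Python 3.11.15 and scipy 1.17.1; positions are 1-based. Overlap and ratio code was tested on simulated data. The control held 17035242 tags in the mutant and 22487837 in wild type. Windows and lists were chosen with earlier results of these data known. Every peak in a window was counted, and the rule for full values was, per window, the strongest peak by fold of each list, unmatched wild-type peaks above the arm median fold and unmatched mutant peaks, with the nearest peaks outside; other peaks were described after their values were seen. The hb window came from general knowledge of dm3. No DNA or protein sequence was used here, so the planned motif search was not run.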

Additional observations from a re-analysis of the deposited data

How the results depend on the processing

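The share of wild-type window peaks with a mutant peak, 75.0%, became 41.7% with a reciprocal overlap of 50% and 100% where the wild-type FDR was limited to 5%, and likewise 100% for the upper 20% by score, an alternative chosen after seeing the data. It stayed between 58.3% and 88.9% with summits within 200 bp, a mutant FDR of at most 5%, or scores kept at the mutant depth. The same held for windows widened by 10 kb or narrowed by 5 kb. It also held, chosen after seeing the data, for the wild-type summit inside a mutant peak. For the changed overlap, summit, FDR and depth rules no share over all arm peaks is given here. Those shares therefore cannot be set against the 45.5% of the 1 bp rule. For the upper 20% by score the arm share was 62.0%. With an FDR of at most 5% the mutant gt peaks fell to 2 and the wild-type tll peaks to 1; the other counts of peaks per window stayed within 1.5 times. The density ratio of paired peaks, mutant over wild type, was 1.19 at gt, 1.22 at knrl-kni and 1.05 at tll. Divided by the median of arm pairs it became 1.04, 1.06 and 0.917, per 1000000 tags inside arm peaks 2.45, 2.52 and 2.17, and with mutant tags over the wild-type length 0.506, 0.998 and 0.685. The last is a lower bound by construction, since tags outside mutant peaks are not counted. Each of the other scalings applied a single constant to all windows. For the tags inside arm peaks, these were 471353 of 10060479 filtered tags in the mutant and 3785727 of 39154546 in wild type. A smaller share of the mutant tags thus lay in arm peaks, which limits every comparison of RPM and RPKM. Why that share differed was not tested. So whether the ratio lay above or below 1 depended on the scaling, at gt and knrl-kni only through that lower bound. The lowest ratio was that of tll except with the wild-type length, where it was that of gt. The median percent of arm peaks below the window peaks, by fold 94.5 (mutant) and 93.3 (wild type), was 97.3 and 92.1 by score and 95.3 and 88.0 by tags per kb. No paired analysis was possible because each genotype has a single deposited list without replicate values, which also means that leaving out a replicate was not possible. The motif alternatives were not run. Mutant depth limits what can be called absent there.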
